A study of Schmidtea mediterranea with 15 samples.

Results

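Between 48 and 72 h after irradiation, few models of the planarian transcriptome were called changed, and most of those called were lower at 72 h. Whole adult Schmidtea mediterranea, freshwater flatworms of the CIW4 clonal strain, were compared at 72 h and at 48 h after 6000 rad of gamma radiation, with 3 libraries of polyA RNA at each time. Worms at 96 h and 24 h after the same dose and unirradiated worms (0 h), again 3 libraries each, gave the other 9 of the 15 libraries. The worms of all groups had been starved for at least a week and were of this 1 strain. Levels were deposited as RPKM, that is, reads scaled to the length of the transcript model and to a size given to each library. Of 26671 transcript models, 19625 had 1 RPKM or more in 3 or more of the 6 libraries at 72 h and 48 h, and these are the members described here. The 595 members that reached 1 RPKM in exactly 3 of the 6 libraries had a median level of 1.00 RPKM, and the 645 models just outside, with 2 such libraries, had a median of 0.892 RPKM.

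Planarians renew all their tissues from dividing stem cells called neoblasts, and a high dose of ionising radiation is known to remove these. Cells that have already left the stem cell state are known to persist for some days and are then no longer replaced, so that successive generations of descendants dwindle in turn. In RNA of whole worms, fewer cells of a type and less RNA per cell cannot be told apart. The deposited table gives IDs of models without gene names, so members are described by their course over time, their level and their length, and no cell type or gene role is attached to them.

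The libraries at 72 h held 16714624 to 30682887 recovered reads and those at 48 h held 19917638 to 29148526. Libraries of 1 time point correlated over the members at r = 0.991 to 0.994 on the log2 scale, and libraries of 72 h with those of 48 h at 0.989 to 0.993. These ranges overlap. Whether the 3 libraries of a time came from separate cultures is not stated in the labels, and the p-values reflect a spread between libraries that may be technical. Time after irradiation and any handling or library batch that went with it cannot be told apart.

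Of the 19625 members, 380 were called changed from 48 to 72 h. A total of 86 were higher at 72 h and 294 were lower (limma, Benjamini-Hochberg adjusted p below 0.05). Over all 21231 models tested, 0.410% were called higher and 1.40% lower. The values at 72 h all lay beyond those at 48 h for each of the 380 members. Over all models tested, all 3 values at 72 h lay above or all 3 lay below those at 48 h in 16.7%. The changes were small: the rises had a median of 0.19 on the log2(RPKM + 0.5) scale and the falls a median of -0.31, beside -0.00193 over all members, and 81.1% of the calls were under 1.5-fold. At least 1.5-fold were 2 rises and 70 falls, beside 0.0141% and 0.344% of all models tested. At least 2-fold were 1 rise and 13 falls, beside 0.00471% and 0.0612% of all models tested. Below the adjusted threshold the directions were closer in number. At an unadjusted limma p below 0.05, 1193 members were higher and 1446 lower. All 3 values at 72 h lay above those at 48 h in 1628 members and below them in 1725.

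**Figure D1:**
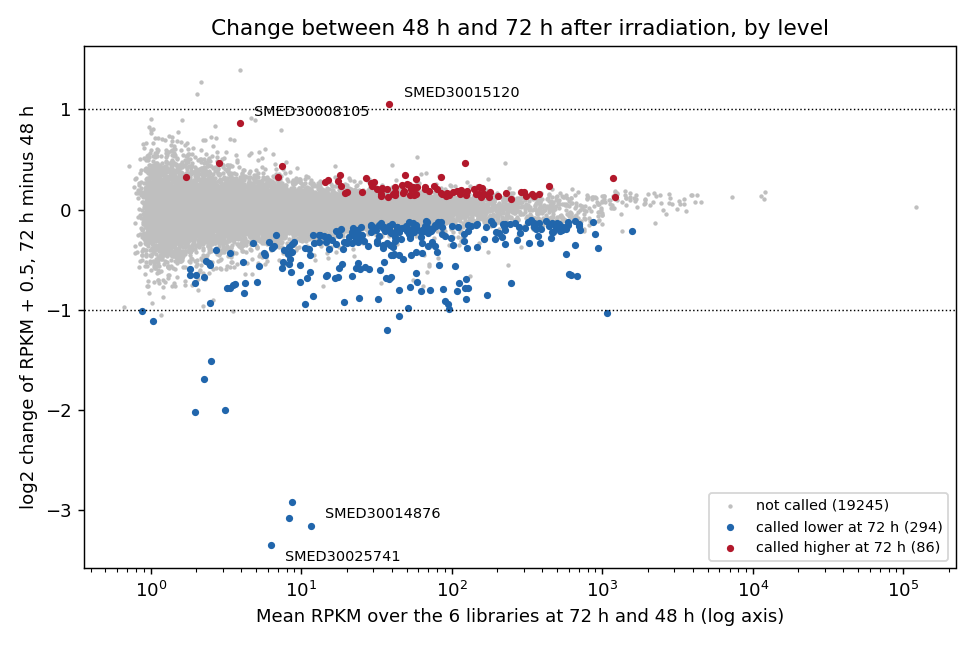
Change of each of the 19625 members (vertical axis, log2 of RPKM + 0.5 at 72 h minus 48 h) against its mean level over the 6 libraries (horizontal axis, RPKM, log axis). Blue points are the 294 members called lower at 72 h, red points the 86 called higher and grey points those not called; dotted lines mark 2-fold changes, which 13 falls and 1 rise reached.

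The number of rises depended on single libraries. It was 151, 24 and 41 without 72 h replicates 1, 2 and 3, 27, 51 and 32 without 48 h replicates 1, 2 and 3, and 51 and 55 without 96 h replicates 1 and 2. The falls numbered 191 without 72 h replicate 2 and 171 and 164 without 48 h replicates 1 and 2. After quantile normalization, 151 members were higher and 270 lower, so that rises made up 35.9% of calls instead of 22.6%. When the fit held only these 6 libraries, 8 were higher and 110 lower, and limma-voom on the recovered reads gave 258 higher and 454 lower. Every one of the 380 members kept its direction after quantile normalization and with limma-voom. In the other settings the direction could not turn. All values at 72 h lay beyond those at 48 h, whichever library of these times was left out. Leaving out 96 h libraries or fitting only these 6 left the size of the change as it was.

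The steepest falls belonged to models that had been abundant in unirradiated worms and were almost gone at 72 h. The 8 largest falls were of this kind, with lengths of 571 to 1588 bases. SMED30025741, 592 bases long, stood at 0.689, 0.830 and 0.613 RPKM in the libraries at 72 h, against 12.8, 12.2 and 10.3 RPKM at 48 h. The 2 groups were far apart, and the mean at 48 h was 16.6 times that at 72 h. The log2 change was -3.34 (SE 0.16, limma adjusted p = 6.58e-09). At 72 h it had 8 to 11 reads in a library, against 142 to 197 reads at 48 h. In the order of time its mean was 489 ± 26.2 RPKM in unirradiated worms, 203 ± 8.29 after 24 h, 11.8 ± 1.32 after 48 h, 0.710 ± 0.110 after 72 h and 0.747 ± 0.443 after 96 h (SD over 3 libraries). No further change was called at 96 h (limma adjusted p = 0.986 for 96 h against 72 h, log2 change -0.01, SE 0.16).

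SMED30014876, 737 bases long, fell next most. Its values were 2.07, 1.58 and 2.15 RPKM at 72 h, against 24.2, 21.5 and 17.9 RPKM at 48 h. The log2 change was -3.15 (SE 0.10, limma adjusted p = 6.29e-11), and the mean at 48 h was 10.9 times that at 72 h. All 3 libraries at 72 h lay well below all 3 at 48 h. The model with the third-largest fall, of 616 bases, had 1.32, 1.40 and 1.39 RPKM at 72 h, against 17.1, 15.2 and 13.7 RPKM at 48 h. That with the fourth, of 573 bases, had 1.42, 1.61 and 1.96 RPKM at 72 h, against 17.0, 15.9 and 14.3 RPKM at 48 h. These 4 models ran close to each other, at 9.48 to 16.6 times the 72 h mean at 48 h, and whether they share reads was not tested. The other 4 of the 8 largest falls had log2 changes of -2.02, -2.002, -1.69 and -1.51, with means of 0.468 to 1.07 RPKM at 72 h and 3.47 to 5.27 RPKM at 48 h. Near the pseudocount of 0.5 RPKM the log2 scale understates such falls.

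**Figure D2:**
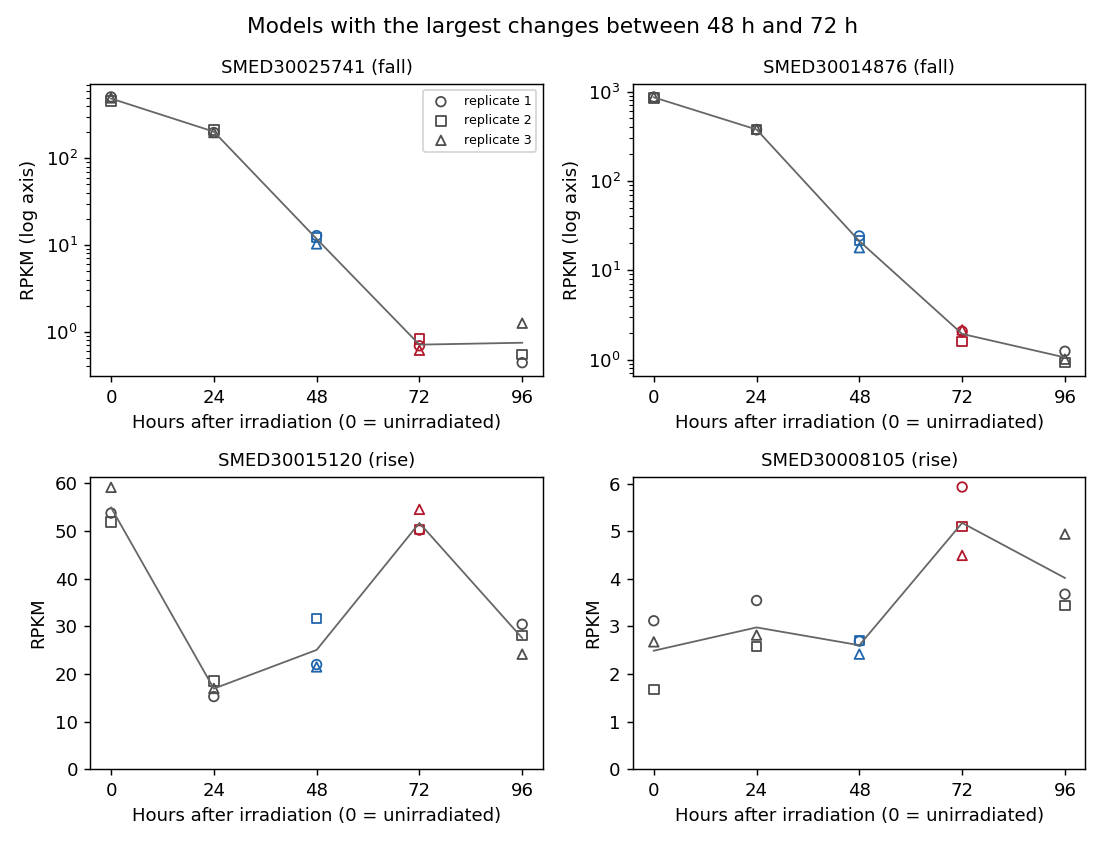
RPKM of the 2 models with the largest falls (upper panels, log axis) and the 2 with the largest rises (lower panels, linear axis) in each of the 15 libraries against hours after irradiation; 72 h libraries are red, 48 h libraries blue, others grey, and lines join the means. Both falling models had dropped below 3 RPKM at 72 h, and SMED30015120 was about as high at 72 h as at 0 h.

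The 13 falls of at least 2-fold had different histories before 48 h. The comparison of 24 h with 0 h uses none of the libraries at 72 h or 48 h, and in it 9 of the 13 were lower at 24 h and 2 were higher, beside 20.9% and 19.4% of all models tested. The summed share of the 9 was 0.000717% ± 0.0000590 at 72 h, against 0.00565% ± 0.000647 of reads at 48 h, having taken 0.233% ± 0.00420 in unirradiated worms and 0.0930% ± 0.000732 after 24 h (SD over 3 libraries). The 2 that had been higher at 24 h followed another course. The shorter of them, of 270 bases and the second most abundant of all 294 falls at 48 h, had 702, 724 and 703 RPKM at 72 h, against 1494, 1457 and 1413 RPKM at 48 h (limma adjusted p = 7.14e-09, log2 change -1.03, SE 0.05). Its means at 0, 24 and 96 h were 1285, 2167 and 411 RPKM, so the level peaked at 24 h. The other, of 1841 bases, had 29.4, 26.8 and 30.3 RPKM at 72 h, against 59.9, 60.1 and 62.1 RPKM at 48 h, after means of 58.7 RPKM at 0 h and 76.6 RPKM at 24 h. The remaining 2 were not called at 24 h. One of these, of 322 bases, had only 2 to 4 reads in a 72 h library and 11 to 15 in a 48 h library, and its call was close to the threshold (limma adjusted p = 0.0473).

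By the calls above, most falls of the third day followed a rise on the first. Of the 294 falls, 161 (54.8%) had been called higher at 24 h than at 0 h, 77 (26.2%) lower and 56 neither. Over all 19625 members these shares were 20.7% higher and 20.8% lower. Level bears on this, since falls were called mostly in abundant models. At a mean of at least 10 RPKM over the 6 libraries, 145 of 245 falls (59.2%) had been higher at 24 h, beside 38.2% of the 8297 models of that level, and 25.3% had been lower, beside 23.1%. The share of falls that had been higher at 24 h ran from 45.6% to 65.4% over the settings tried. This leaves out the fit to the 6 libraries alone, which holds no 24 h or 0 h library. With limma-voom (45.6%) and without 72 h replicate 3 (49.4%) the falls that had been higher at 24 h were not the majority.

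The median of the 161 models with a first-day rise went through the level at 0 h between 48 and 72 h, but single models crossed it at other times or not at all. Relative to 0 h, their median log2 difference was 0.46 after 24 h, 0.22 after 48 h, -0.13 after 72 h and -0.37 after 96 h. These 4 comparisons share the libraries at 0 h. By mean RPKM, 103 of the 161 lay below their level at 0 h at 72 h, against 25 of the 161 at 48 h. In sum they took 1.83%, 1.801% and 1.84% of the reads of the 3 libraries at 72 h, against 2.32%, 2.298% and 2.27% at 48 h, a direction fixed by the choice of these models, as in the other sums over called members. The share had been 1.95% ± 0.00225 in unirradiated worms and 2.67% ± 0.0530 after 24 h, and it was 1.64% ± 0.0233 after 96 h (SD over 3 libraries).

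The steeper of these falls went on during the fourth day. Of the 70 falls of at least 1.5-fold, 40 had been higher at 24 h than at 0 h. Their median level was 61.1 RPKM in unirradiated worms, 89.4 after 24 h, 67.4 after 48 h, 36.5 after 72 h and 23.5 after 96 h. They took 0.246%, 0.243% and 0.246% of reads at 72 h, against 0.428%, 0.423% and 0.410% at 48 h, and 0.150% ± 0.00331 after 96 h (SD over 3 libraries). The median log2 change was -0.76 from 48 to 72 h and -0.76 from 72 to 96 h. These intervals share the libraries at 72 h, and the models were chosen by their change in the first of them. The medians are therefore not a like comparison of pace. An example is the model with the fourteenth-largest fall, of 1408 bases, with 60.7, 67.3 and 62.9 RPKM at 72 h, against 127, 130 and 124 RPKM at 48 h (limma adjusted p = 1.08e-09, log2 change -0.997, SE 0.04). It had stood at a mean of 155 RPKM at 0 h and 216 RPKM at 24 h and was at 32.6 RPKM at 96 h.

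The 77 falls that had been lower at 24 h than at 0 h mostly changed less on the third day. Apart from the 9 steep falls above, they were under 2-fold, and the median log2 change of all 77 was -0.22. Their median difference from unirradiated worms was -0.51 after 24 h, -0.55 after 48 h, -0.75 after 72 h and -0.77 after 96 h. In sum they took 1.44%, 1.44% and 1.55% of reads at 72 h, against 1.71%, 1.67% and 1.71% at 48 h. The 56 falls with no call at 24 h had a median log2 change of -0.31 on the third day and lay at a median of -0.41 against 0 h at 72 h, beside -0.17 at 48 h.

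**Figure D3:**
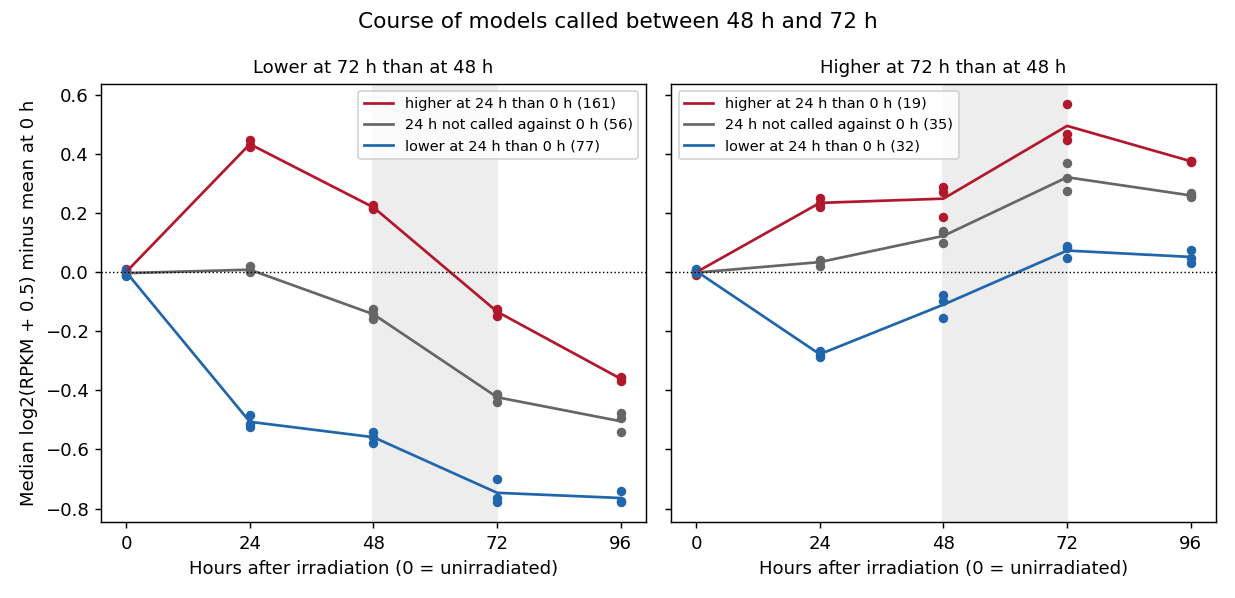
Median over models of log2(RPKM + 0.5) minus the model's mean at 0 h, for the 294 falls (left) and 86 rises (right) of the third day, split by their call at 24 h against 0 h; points are libraries, lines join the means of the 3 libraries and the shaded band is the interval from 48 to 72 h. The median of the 161 falls with a first-day rise crosses the level of unirradiated worms within this interval, while 103 of the 161 models lay below it at 72 h and 25 at 48 h. The choice of these models by their calls favours such a crossing.

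Rises on the third day had a smaller median change than the falls and had mixed histories. Of the 86, 32 (37.2%) had been lower at 24 h than at 0 h, 19 (22.1%) higher and 35 neither, beside 20.8% and 20.7% of all members. At a mean of at least 10 RPKM, 35.8% of 81 rises had been lower, beside 23.1% of all models of that level, and 23.5% had been higher, beside 38.2%. The 32 models that had been lower at 24 h reached a median of 0.07 on the log2 scale against 0 h at 72 h, beside -0.11 at 48 h and -0.27 at 24 h. The 19 that had been higher at 24 h stood at a median of 0.49 at 72 h, beside 0.24 at 48 h. Together the 86 took 1.58%, 1.63% and 1.6005% of reads at 72 h, against 1.44%, 1.43% and 1.38% at 48 h.

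SMED30015120, of 400 bases, rose most. It had 50.2, 50.4 and 54.6 RPKM at 72 h, against 22.0, 31.7 and 21.5 RPKM at 48 h. The log2 change was 1.05 (SE 0.12, limma adjusted p = 0.000136), and 48 h replicate 2 lay between the other libraries of its time and those at 72 h. Its mean was 54.96 ± 3.78 RPKM in unirradiated worms, 16.9 ± 1.65 after 24 h, 25.05 ± 5.75 after 48 h, 51.7 ± 2.47 after 72 h and 27.5 ± 3.17 after 96 h (SD over 3 libraries). The level at 72 h was thus not sustained at 96 h (limma adjusted p = 0.000497, log2 change -0.90, SE 0.12). SMED30008105, of 301 bases, had 5.93, 5.10 and 4.49 RPKM at 72 h, against 2.69, 2.71 and 2.42 RPKM at 48 h. Its log2 change of 0.86 (SE 0.18, limma adjusted p = 0.0194) came from 25 to 41 reads in each 72 h library and 16 to 21 reads in each 48 h library. The call was lost without any 1 of the 3 libraries at 48 h or without 72 h replicate 1 or 2, with adjusted p from 0.0569 to 0.0775.

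The third-largest rise was small by comparison, with a log2 change of 0.46. Among abundant models, a model of 1660 bases had 1250, 1387 and 1293 RPKM at 72 h, against 1057, 1088 and 1006 RPKM at 48 h (limma adjusted p = 0.000231, log2 change 0.32, SE 0.04). It held 1254 RPKM at 96 h and had been at 1009 RPKM at 24 h. A model of 1613 bases, almost lost by 24 h, also counted as a rise, with 2.02, 2.02 and 1.84 RPKM at 72 h, against 1.53, 1.36 and 1.503 RPKM at 48 h. Its mean in unirradiated worms was 154 RPKM, so this change was slight beside the earlier loss.

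The direction of the third day was also that of libraries outside the comparison. Of the 294 falls, 249 (84.7%) were called lower at 96 h than at 24 h, 11 were called higher and 34 were not called. Over all members these shares were 17.2% and 16.1%, and over all models tested 16.3% and 15.1%. Of the 86 rises, 68 (79.1%) were called higher at 96 h than at 24 h, 3 were called lower and 15 were not called. The comparison of 96 h with 24 h uses no library of 72 h or 48 h, although the 15 libraries share 1 estimate of the spread. At a mean of at least 10 RPKM, 210 of 245 falls (85.7%) were lower at 96 h, beside 29.3% of all models of that level, and 66 of 81 rises (81.5%) were higher, beside 21.6%. Over the settings tried, the share was 74.7% to 95.3% for falls and 68.6% to 91.7% for rises. These ranges leave out the fit to the 6 libraries alone, which holds no 96 h or 24 h library.

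**Figure D4:**
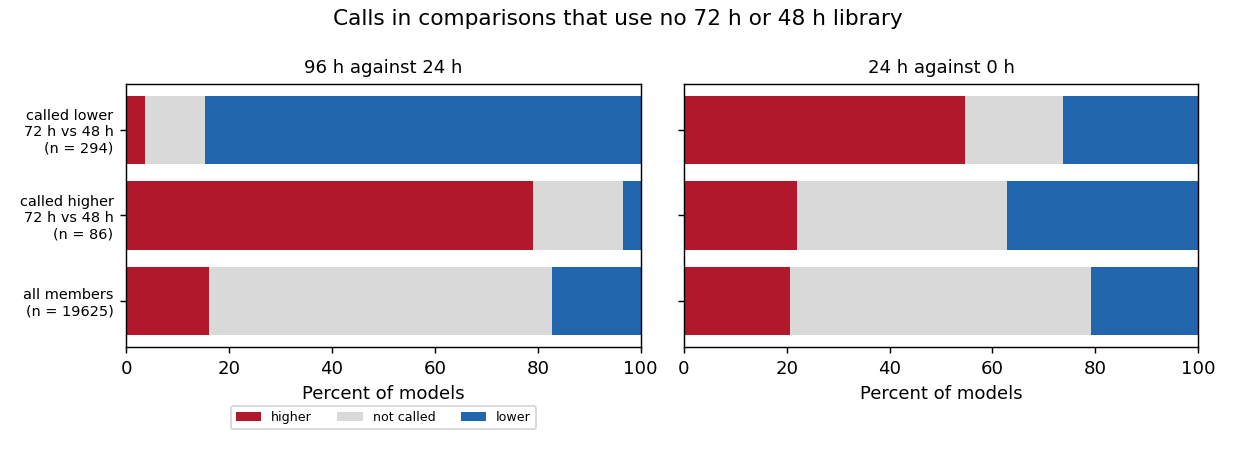
Percent of models called higher (red), lower (blue) or not called (grey) at 96 h against 24 h (left) and at 24 h against 0 h (right), for the 294 members called lower at 72 h than at 48 h, the 86 called higher and all 19625 members. Falls of the third day were mostly lower at 96 h than at 24 h, 84.7% beside 17.2% of all members.

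Single libraries stood at different points of the course from 24 to 96 h. Over the 6532 members called between 96 h and 24 h, each library was placed by a regression of its difference from the 24 h mean on the difference of the 96 h mean from the 24 h mean, so that 0 is the 24 h mean and 1 the 96 h mean. The libraries at 72 h lay at 0.737, 0.648 and 0.742 (replicates 1, 2 and 3), against 0.490, 0.479 and 0.619 at 48 h. The group means were 0.709 ± 0.0530 at 72 h, against 0.530 ± 0.0778 for the libraries at 48 h (SD over 3 libraries). The groups did not overlap, but 72 h replicate 2 and 48 h replicate 3 were close neighbours. Restricted to models of at least 10 RPKM, these 2 libraries lay at 0.596 and 0.594. The part of this spread in the dependence of the call counts on single libraries was not tested.

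**Figure D5:**
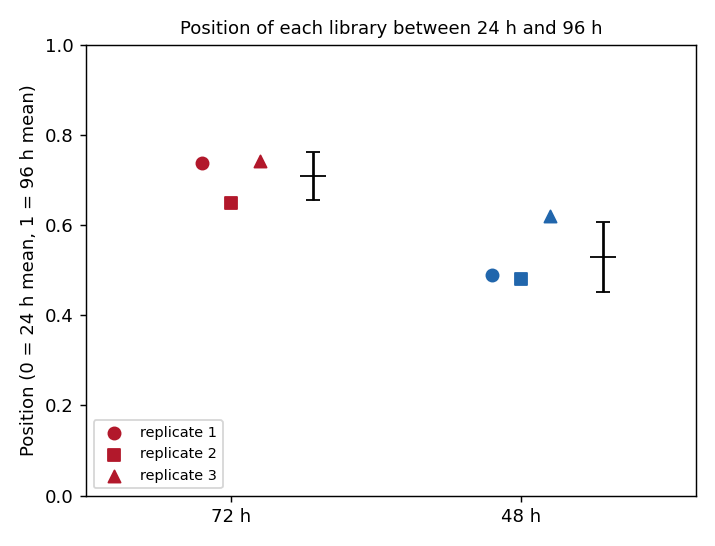
Position of each library at 72 h (left) and 48 h (right) on the course from the 24 h mean (0) to the 96 h mean (1), over 6532 members called between 96 h and 24 h; symbols are replicates, and the black marks show the mean and SD of 3 libraries. The 72 h libraries lie between 0.648 and 0.742, all above the 48 h libraries at 0.479 to 0.619.

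The third day differed from the days around it in part of the members. By the same threshold, 13.1% of all models tested were called at 48 h against 24 h, 1.81% at 72 h against 48 h and 4.95% at 96 h against 72 h. Whether a model's change differed between days was tested directly. For 438 members the change from 48 to 72 h differed from that from 24 to 48 h (limma adjusted p below 0.05), 82 with a higher and 356 with a lower change on the third day, beside 0.419% and 1.68% of all models tested. Of the 438, 67 were called falls of the third day, 54 with a lower and 13 with a higher change, and 4 were called rises. The others had no called change from 48 to 72 h. For 75 members the change from 48 to 72 h differed from the change from 72 to 96 h, 39 higher and 36 lower, beside 0.184% and 0.170%. Of the 75, 29 were called falls of the third day and 17 called rises. The first count was 69 without 48 h replicate 3, 284 and 246 without 48 h replicates 1 and 2, and 291 without 72 h replicate 2. The second was 320, 17 and 125 without 72 h replicates 1, 2 and 3, and 47, 38 and 36 without 96 h replicates 1, 2 and 3.

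Calls rose steeply with level, as did precision. Of 2071 members at 50 RPKM or more, 2.51% were called higher and 6.57% lower, with a median SE of 0.04 on the log2 scale. Of 3775 members under 2 RPKM, 0.0265% were called higher and 0.185% lower, with a median SE of 0.19.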

How the data were processed

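The authors deposited RPKM values for 26671 transcript models in 15 libraries. CASAVA 1.8.2, Bowtie and edgeR were used upstream per the submitters' processing notes, which give no role or order. The transcript set, strand use and handling of multiply matching reads are not stated there, so near-identical or overlapping models may share reads. RPKM is relative to the size given to its library and does not show a change in RNA per worm.

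In the authors' RPKM table each value is an integer number of steps, the step depending on model and library. From these, whole reads and lengths were recovered for 100% of models within 0.0001 reads, with 9749391 to 30707808 reads per library. The library size behind the RPKM values was 0.974 to 1.03 times the recovered reads, lowest in 72 h replicate 2. The source of this difference, and its part in the call counts, was not tested. The 21231 models that had 1 RPKM or more in 3 or more of 15 libraries were fitted as log2(RPKM + 0.5) with a mean per time point, using limma 3.58.1 (trended, moderated variances, two-sided) in R 4.3.3. P-values were adjusted by Benjamini-Hochberg over all 21231, and members were counted afterwards. Classes of members, and their positions between 24 h and 96 h, are descriptions without a test.

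Named models are the 2 largest rises and falls among called members with no overlap between the times and a mean of at least 5 RPKM at the higher time; others are given by rank or length, chosen after their values were seen. The members and lists were chosen with earlier results of these data known; gene lists of stem cell, progeny and tissue markers could not be applied to IDs without names. On simulated reads for 72 h against 48 h (21336 models fitted), the fit called 15 of 50 models with a 1.2-fold change, 29 of 50 with 1.5-fold, 43 of 50 with 2-fold and 47 of 50 with 4-fold, with 4 unchanged models among 138 calls. The simulation used 1 dispersion for all models (0.00108) and no shift shared within a library. Its shares of calls therefore need not hold for the real libraries. Alternatives were pseudocounts of 0.1 and 1 RPKM, no filter, quantile normalization, the compared libraries alone, limma-voom on recovered reads, a replicate block and leaving out single libraries. Leaving out 24 h and 96 h libraries for the counts of 72 h against 48 h was chosen after seeing the data. Python 3.11.15, numpy 2.4.6, pandas 2.3.3 and matplotlib 3.10.9 were used.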

Additional observations from a re-analysis of the deposited data

Results flagged for a closer look

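Each result here stood out because the change from 48 to 72 h differed from that of a neighbouring day in a direct limma test of the difference; both days of a pair use the libraries of the time between them. This held for 438 members against the change from 24 to 48 h and for 75 against the change from 72 to 96 h. SMED30014876 fell less from 48 to 72 h than from 24 to 48 h on the log2 scale, a difference of 0.98 (SE 0.17, limma adjusted p = 0.0104). Its fall from 48 to 72 h was larger than that from 72 to 96 h, a difference of -2.51 (SE 0.17, limma adjusted p = 2.93e-06). SMED30025741 also fell more from 48 to 72 h than it changed from 72 to 96 h, a difference of -3.33 (SE 0.28, limma adjusted p = 3.08e-05). At 72 h SMED30025741 had a mean of 0.710 RPKM and SMED30014876 one of 1.93 RPKM. Near the pseudocount of 0.5 RPKM little further fall can show on this scale. The fall of SMED30014876 from 48 to 72 h was -3.39 with a pseudocount of 0.1 RPKM instead of -3.15. This fall enters its difference of 0.98, whose value with that pseudocount is not given here. SMED30015120 rose from 48 to 72 h and was lower at 96 h than at 72 h, a difference between the changes of 1.95 (SE 0.21, limma adjusted p = 0.000335). These named models had been chosen for their large changes from 48 to 72 h, which enter each of these differences.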

How the results depend on the processing

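Against 86 members higher and 294 lower at 72 h, there were 151 higher after quantile normalization, 8 higher and 110 lower with only the libraries compared, and 258 higher and 454 lower with limma-voom, which also gave 5 rises of at least 2-fold instead of 1. The causes were not tested. Leaving out single libraries gave 24 to 151 higher, 164 to 275 lower, 0 to 3 with 2-fold rises and 11 to 18 with 2-fold falls. The differences from the previous and next day (438 and 75) numbered 79 and 23 with only the libraries compared and 952 and 623 with limma-voom, and 69 to 490 and 17 to 320 without single libraries. With pseudocounts of 0.1 and 1 RPKM and without a filter all these counts stayed within 1.5 times. SMED30025741, SMED30014876 and SMED30015120 were called in all 19 alternatives, with log2 changes of -4.01 to -2.898, -3.39 to -2.91 and 0.956 to 1.23. SMED30008105 kept its call in 14 of the 19. Its direction held in all 19, most of which could not have turned it.

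The replicate numbers were not used in the counts above, and whether they pair the samples is not settled. Deviations of same-numbered libraries at 72 h and 48 h correlated at -0.0265, 0.0972 and 0.136. Those of differently numbered libraries correlated at -0.166 to 0.0740. Replicates 2 and 3 of both times correlated best with their own number, and replicate 1 of either time did not. With the replicate block, 67 members were higher and 256 lower.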

Other observations

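Members called on the third day differed in length by direction. The 86 rises had a median length of 1512 bases and the 294 falls one of 1005 bases, beside 1184 bases over all members. Of the 6545 members of up to 807 bases, 1.71% were called lower and 0.183% higher, and of the 6540 members of 1637 bases or more, 1.12% were called lower and 0.550% higher. The median level also differed, at 3.53 RPKM in the shorter and 10.5 RPKM in the longer group, and its part in these shares was not tested. The most abundant of the falls, of 2392 bases, had 1384, 1416 and 1597 RPKM at 72 h, against 1689, 1627 and 1794 RPKM at 48 h, a call near the threshold (log2 change -0.22, limma adjusted p = 0.049). The most abundant of the rises, of 1130 bases, had 1236, 1282 and 1283 RPKM at 72 h, against 1168, 1192 and 1137 RPKM at 48 h (log2 change 0.12, limma adjusted p = 0.0467).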
